A study of Mus musculus with 4 samples.

Results

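The aryl hydrocarbon receptor (AHR) gene battery was followed through 4 liver RNA-seq libraries of mice that received conjugated linoleic acid (CLA), the PPARα antagonist GW6471, or both. Its members were taken by symbol from a fixed list of 10 genes, namely the receptor Ahr, its partner Arnt, the repressors Ahrr and Tiparp, and the targets Cyp1a1, Cyp1a2, Cyp1b1, Nqo1, Aldh3a1 and Ugt1a6a. The expression table held 9 of them among 15500 listed genes, and Aldh3a1 was not listed. The members were chosen by name with the FPKM of these 4 libraries already known, so the levels below are a description and no difference was tested.

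AHR is a ligand-activated transcription factor that waits in the cytosol with HSP90 and co-chaperones. Once bound by a ligand, such as a planar aromatic pollutant or a product of tryptophan, it enters the nucleus, pairs with ARNT and binds xenobiotic response elements that carry the core GCGTG. In liver it is known for inducing cytochrome P450 genes of family 1 and conjugating enzymes, and AHRR and TIPARP dampen its action in negative feedback.

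All animals were male Kunming mice, an outbred stock, bought at 5 weeks of age and kept on chow for 1 week. The Vehicle group then ate chow with 1.5% (w/w) linoleic acid, and the CLA group ate chow with 1.5% CLA in its place, a mixture of equal amounts of the c9t11 and t10c12 isomers. The GW6471 group ate the linoleic acid diet and was injected intraperitoneally with GW6471 daily at 20 mg per kg, and the CLA+GW6471 group combined the CLA diet with these injections. Vehicle injections were given where appropriate. Feeding lasted 28 days, and livers were taken at zeitgeber time 8, that is 8 h after lights on. Each group had 6 mice, 1 library per condition was analysed here, and the sources do not say whether RNA of several mice was pooled.

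Values were taken as FPKM, since the study's methods name Cufflinks and the table itself names no unit, and the read estimates and intervals rest on this. FPKM are the fragments of a gene scaled to its transcript length and to the library's depth, which allow levels to be compared between genes. The depth, an approximate estimate from the steps between low values, was 18795227 to 19280219 reads per library. Where 4 values stand without names, their order is Vehicle, CLA, GW6471, CLA+GW6471. Ratios of FPKM are given with a 95% counting interval (exact Clopper-Pearson) from the reads this depth implies, which covers counting error only and not the spread between mice. With 1 library per condition there was no replicate error, and no p-value is given.

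Hepatocyte markers went against the liver label in part. Of 16 such genes, 13 were listed and 7 of these had a mean FPKM below 1, among them Ttr, Cps1 and Cyp2e1, the last at 0.04 to 0.1 FPKM, while Cyp3a11, Pck1 and Serpina1a were not listed. Alb was present at 679.53 FPKM in Vehicle and 620.17 in CLA+GW6471, with 1321.55 in CLA and 1067.32 in GW6471, and the summed marker level was 1080.6, 1962.9, 1604.9 and 1007.8 FPKM. PPARα targets were also at odds with the labelled antagonist: Pdk4, a mitochondrial kinase induced by PPARα, had 1.17 FPKM in Vehicle and 15.56 in CLA+GW6471, with 1.87 in CLA and 17.99 in GW6471. All values are given as labelled, and the cause was not tested.

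Cyp1a1, the defining AHR target, is shown first with its upstream sequence, because it had the highest mean level of the battery. The gene lies on the plus strand of chromosome 9 in mm9, the assembly of the files, at chr9:57545420-57551629. Within 2000 bases upstream of its 5′ end, the extended element TNGCGTG, searched on both strands, occurred 7 times. The same search over 22238 protein-coding genes found at least 1 match in 19.6% of them, and Cyp1a1 was the 1 gene with as many as 7. The stretch with the most matches lay 794 to 1093 bases upstream at chr9:57544327-57544626, in the known Cyp1a1 enhancer region. It is printed 5′ to 3′ on the plus strand with the 4 elements in capitals.
Cyp1a1 enhancer: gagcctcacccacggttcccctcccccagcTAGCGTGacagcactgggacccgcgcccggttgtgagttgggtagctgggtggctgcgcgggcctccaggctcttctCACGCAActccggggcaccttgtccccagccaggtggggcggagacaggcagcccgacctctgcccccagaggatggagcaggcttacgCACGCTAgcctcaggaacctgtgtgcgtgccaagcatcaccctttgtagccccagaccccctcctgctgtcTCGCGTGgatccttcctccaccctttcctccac

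The other listed members with a match are shown with the element nearest to the gene and 10 bases on each side, to set them beside Cyp1a1. Each is printed in the direction of its gene with the element in capitals, where CACGCNA is the same element read on the other strand. The Nqo1 match lay 386 bases upstream of the 5′ end and the Tiparp match 374 bases upstream, both in the forward direction.
Nqo1, chr8:109927476-109927502, minus strand: acccttccccTAGCGTGcaaaggtgac
Tiparp, chr3:65331948-65331974, plus strand: ctctctcacaTCGCGTGcccgggtgtc
Ahrr, chr13:74429792-74429818, minus strand: gcggggcggcTCGCGTGctggggtggg
Cyp1b1, chr17:80115239-80115265, minus strand: cacagctccgCACGCAAgggggaggcg

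These matches did not order the members by expression. The extended element occurred 3 times upstream of Cyp1b1, 2 times upstream of Ahrr and of Aldh3a1, and 1 time upstream of Tiparp and of Nqo1. It had no match upstream of Ahr, Arnt, Cyp1a2 or Ugt1a6a. The 5-letter core, which every extended match contains, occurred 12 times upstream of both Cyp1a1 and Cyp1b1, a number that 0.135% of genes reach, and 69.8% of genes have at least 1. A match is a description of letters and was not tested as a binding site. For Ugt1a6a the window was placed at the RefSeq 5′ end, whose promoter sequence matched mm9 1 time, because the annotated gene starts 31557 bases further upstream.

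**Figure D1:**
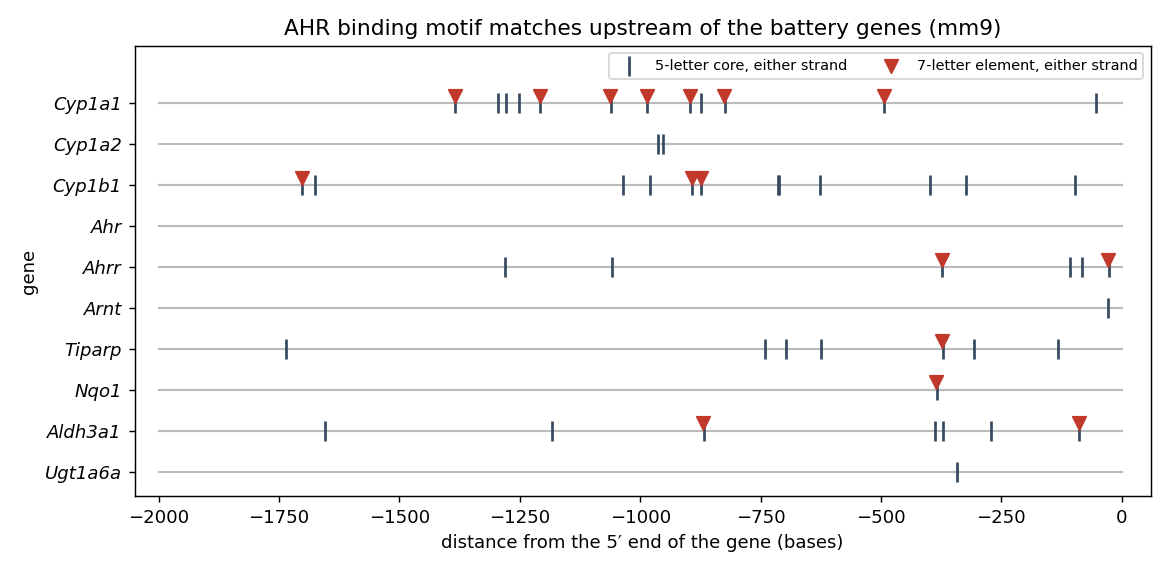
Positions of the 5-letter AHR core (bars) and of the 7-letter extended element that contains it (triangles), on either strand, in the 2000 bases upstream of each gene in mm9, against the distance from the gene's 5′ end. Cyp1a1 has 7 extended elements, 6 of them at 826 bases or more upstream, and Ahr has neither motif.

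Cyp1a1 encodes the monooxygenase that oxidises polycyclic aromatic compounds and is very low in unexposed liver. It had 22.08 FPKM in Vehicle and 22.08 in CLA+GW6471, with 76.07 in CLA and 74.74 in GW6471. The libraries of the single treatments were thus both high, and those of Vehicle and of the combination both low. Relative to Vehicle the level was 3.45-fold in CLA (interval 3.22 to 3.69) and 3.38-fold in GW6471 (3.16 to 3.62). Relative to CLA+GW6471 it was 3.45-fold in CLA and 3.38-fold in GW6471 as well. CLA and GW6471 differed by a ratio of 1.02 (0.973 to 1.07) and CLA+GW6471 and Vehicle by 1 (0.919 to 1.09), so neither of these pairs differed beyond counting error.

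The gap of Cyp1a1 between the lower of the single treatments and the higher of the other libraries was 1.75 on the log2(FPKM + 0.1) scale. It ranked number 2 among the 10355 genes that averaged 1 FPKM or more. The gap measures the grouping already seen in the values of Cyp1a1, so its rank is a description and no test. Over all these genes, 30.2% had both single treatments above both other libraries, and 1.87% had them apart by at least 1.5-fold. In the reverse direction, with both single treatments at least 1.5-fold below, the share was 0.888%. Of the 6 hepatocyte markers that averaged 1 FPKM or more, Alb, Trf, Fgb and Apob had the same order of libraries as Ahr, described next, and so did the sum, which is mostly Alb. Hnf4a, with 54.53, 47.31, 47.23 and 51.84 FPKM, did not have this order. Glul, with 75.37, 98.13, 82.04 and 76.69, had the order of Nqo1, so that 5 of the 6 had both single treatments above both other libraries, the grouping of Cyp1a1, and the part of the markers in these levels was not tested. In bulk tissue, fewer cells of a type and less RNA per cell cannot be told apart.

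Ahr, the receptor itself, lies on the minus strand at chr12:36182646-36219710. It had 20.92 FPKM in Vehicle and 15.94 in CLA+GW6471, with 36.13 in CLA and 30.65 in GW6471. Its order was CLA, GW6471, Vehicle and CLA+GW6471, and each neighbouring pair differed beyond the counting interval. The receptor transcript was 1.73-fold of Vehicle in CLA (1.64 to 1.82) and 1.47-fold in GW6471 (1.39 to 1.55). In CLA+GW6471 it was 0.762 of Vehicle (0.715 to 0.812), 0.441 of CLA (0.416 to 0.467) and 0.52 of GW6471 (0.49 to 0.552). The receptor and Cyp1a1 therefore shared the high libraries, although the spread of Ahr was smaller, at 2.26-fold against 3.43-fold on the scale with 0.1 added.

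Arnt, the partner that AHR shares with the hypoxia-inducible factors, lies on the plus strand at chr3:95238310-95301162 and was the most even member. Its levels were 32.16 FPKM in Vehicle and 33.08 in CLA+GW6471, with 36.4 in CLA and 34.92 in GW6471. The highest library was 1.13-fold of the lowest (1.07 to 1.19). Both single treatments again lay above both other libraries, but by a gap of 0.08 on the log2(FPKM + 0.1) scale, which ranked number 2207 among the 10355 genes.

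The negative regulators followed neither Cyp1a1 nor Ahr. Tiparp, on the plus strand at chr3:65332332-65359067, encodes a mono-ADP-ribosyltransferase that modifies AHR and is itself a target of AHR. It had 16.29 FPKM in Vehicle and 17.09 in CLA+GW6471, with 14.56 in CLA and 19.29 in GW6471. CLA was the lowest library and GW6471 the highest, with a ratio of CLA to GW6471 of 0.755 (0.696 to 0.818), where Cyp1a1 had 1.02. The ratio to Vehicle was 0.894 in CLA (0.822 to 0.973) and 1.18 in GW6471 (1.1 to 1.28). Neither counting interval held 1, and both ratios lay inside 1.5-fold.

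Ahrr encodes the AHR repressor, which competes with AHR for ARNT and is usually induced along with Cyp1a1. It was near the lower limit of the data, at 0.17 FPKM in Vehicle and 0.08 in CLA+GW6471, with 0.13 in CLA and 0.03 in GW6471. These values correspond to about 15, 12, 3 and 7 reads in the order Vehicle, CLA, GW6471, CLA+GW6471. GW6471, a library with high Cyp1a1, had the lowest Ahrr, at 0.176 of Vehicle (0.0367 to 0.7). CLA and Vehicle did not differ beyond counting error, with a ratio of 0.765 (0.343 to 1.84).

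**Figure D2:**
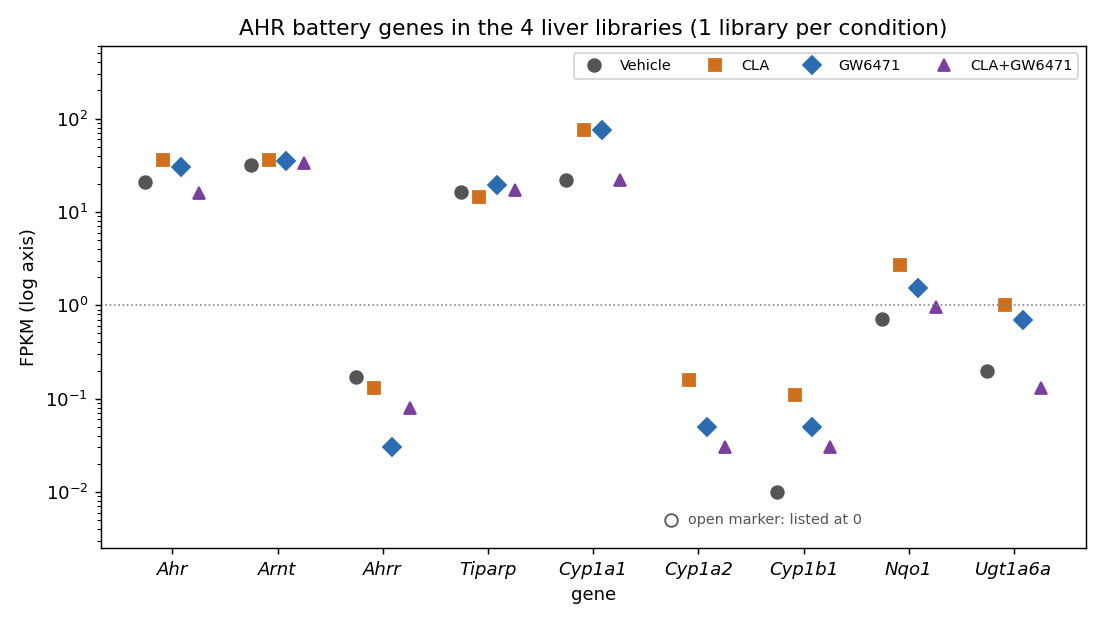
FPKM on a log axis for the 9 listed members, 1 point per library, with the dotted line at 1 FPKM and the open marker for a value of 0. Cyp1a1 stands at 76.07 and 74.74 FPKM in CLA and GW6471 against 22.08 in both other libraries, Arnt and Tiparp stay within 1.5-fold, and Ahrr, Cyp1a2 and Cyp1b1 lie below 0.2 FPKM.

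The other family 1 P450 genes were nearly absent. Cyp1a2, a major constitutive P450 of hepatocytes that lies beside Cyp1a1 at chr9:57524744-57531462, was listed at 0 in Vehicle and 0.03 in CLA+GW6471, with 0.16 FPKM in CLA and 0.05 in GW6471. At this depth these are about 0, 6, 2 and 1 reads, again from Vehicle to CLA+GW6471. Over the 4 libraries Cyp1a1 averaged 48.7 FPKM and Cyp1a2 0.06 FPKM. The low Cyp1a2 stood beside the low Cyp2e1, another P450 of hepatocytes around the central vein, and beside Glul, a marker of the same zone, at 75.37 to 98.13 FPKM.

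Cyp1b1, a P450 of extrahepatic tissues and mesenchymal cells, had 0.01 FPKM in Vehicle and 0.03 in CLA+GW6471, with 0.11 in CLA and 0.05 in GW6471, or about 1, 11, 5 and 3 reads from Vehicle, CLA, GW6471 and CLA+GW6471. For both genes CLA was the highest library and Vehicle the lowest. The ratio of CLA to Vehicle for Cyp1b1 was 11 with a counting interval of 1.61 to 476, and its ratio of GW6471 to Vehicle was not distinguishable from 1 at this depth (0.554 to 234). Of the mesenchymal markers, Col1a1 was at 0.15 to 0.33 FPKM and Pdgfrb at 0 to 0.05, and Dcn alone was high, at 1147.76 to 1506.01 FPKM.

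Nqo1, on the minus strand at chr8:109912125-109927106, encodes a quinone reductase under the control of both AHR and the oxidative stress factor NRF2. It had 0.72 FPKM in Vehicle and 0.96 in CLA+GW6471, with 2.67 in CLA and 1.53 in GW6471. The reads behind these values were about 21 in Vehicle, 78 in CLA, 45 in GW6471 and 29 for the combination. The order of the libraries was CLA, GW6471, CLA+GW6471 and Vehicle. CLA was 3.71-fold of Vehicle (2.28 to 6.36) and 1.75-fold of GW6471 (1.2 to 2.6), and GW6471 was 2.12-fold of Vehicle (1.24 to 3.75). The ratio of CLA+GW6471 to GW6471, 0.627 (0.386 to 1.04), did not lie beyond counting error.

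Aldh3a1, an aldehyde dehydrogenase that AHR induces, gave no value. Ugt1a6a, a phenol glucuronosyltransferase, had a low level and the widest spread of the battery on the log2(FPKM + 0.1) scale, an order that depends on the 0.1 added, since Cyp1b1 and Cyp1a2 spread more widely as plain FPKM. It had 0.2 FPKM in Vehicle and 0.13 in CLA+GW6471, with 1.01 in CLA and 0.69 in GW6471. The single treatments were high and the other libraries low, the same grouping as in Cyp1a1. CLA was 5.05-fold of Vehicle (2.82 to 10.7) and GW6471 3.45-fold (1.84 to 7.39), and CLA+GW6471 was 0.129 of CLA (0.0512 to 0.259). These intervals rest on the length of the longest annotated transcript, whose start was set aside for the motif window, and are approximate. Its neighbour Ugt1a6b had 0.37, 0.98, 0.94 and 0.8 FPKM. The genes of the Ugt1a cluster share their downstream exons, so the division of reads between Ugt1a6a and Ugt1a6b is uncertain.

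**Figure D3:**
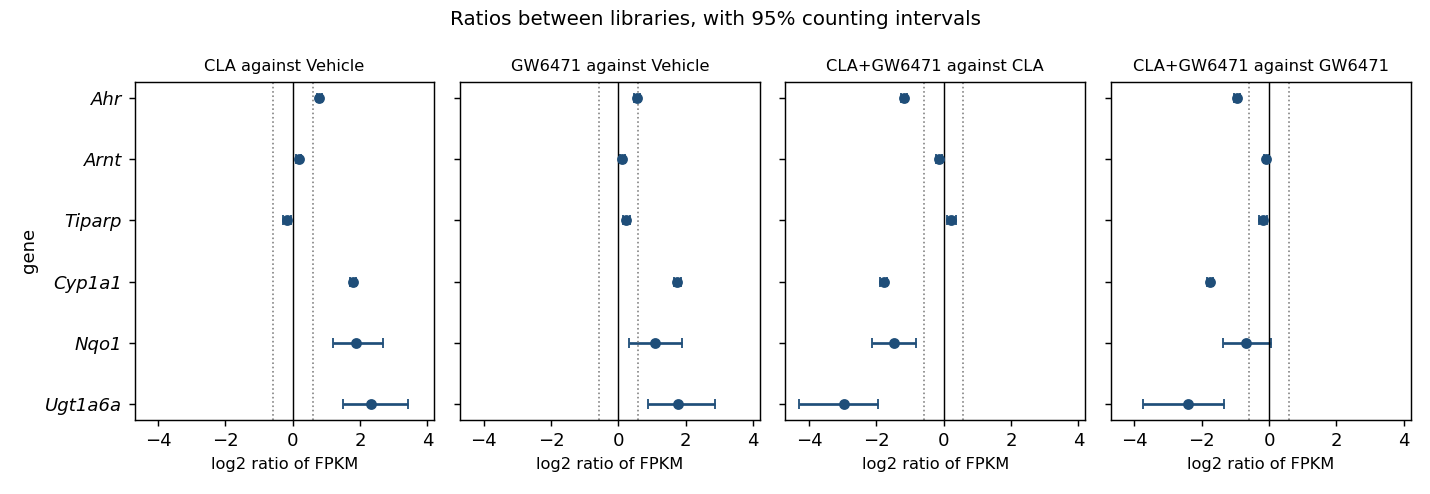
Log2 ratios of FPKM (points) with 95% counting intervals (bars) for 6 members in the 4 comparisons, where the dotted lines mark 1.5-fold. Cyp1a1, Ahr, Nqo1 and Ugt1a6a lie to the right of 0 in both comparisons with Vehicle and to the left in both comparisons of CLA+GW6471 with a single treatment, although the interval of Nqo1 reaches 0 in the last.

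Counts across the battery were taken over the 5 members that averaged 1 FPKM or more (Cyp1a1, Ahr, Arnt, Tiparp and Nqo1) and a limit of 1.5-fold on the log2(FPKM + 0.1) scale. Nqo1 reached this mean only through its values in CLA and GW6471. In CLA against Vehicle, Cyp1a1, Ahr and Nqo1 were higher past the limit, beside 12.3% of the 10355 genes past it in either direction, 7.3% higher and 4.95% lower. In GW6471 against Vehicle, Cyp1a1 and Nqo1 were past it, beside 5.38% of all genes, 3.28% higher and 2.1% lower, and Ahr lay just inside. Both comparisons share the Vehicle library.

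CLA+GW6471 was lower than CLA past the limit for Cyp1a1, Ahr and Nqo1, beside 16% of all genes in either direction, 6.84% higher and 9.15% lower. It was lower than GW6471 for the same 3 genes, beside 6.69% of all genes, 2.81% higher and 3.88% lower, and these comparisons share the CLA+GW6471 library. The median log2 difference was 0.79, 0.55, -1.18 and -0.62 over these 5 members, in the order of the comparisons, and 0.93, 0.55, -1 and -0.21 over all 9 listed members. These stand beside medians of -0.0071, -0.0041, 0.009 and 0.0041 over the 10355 genes. For Cyp1a1 the log2 difference between the libraries with and without CLA was 1.78 without GW6471 and -1.75 with it. Over all 10355 genes, 2.98% were past 1.5-fold higher with CLA in the absence of GW6471 and past 1.5-fold lower with CLA in its presence, as Cyp1a1, Ahr and Nqo1 were, and 1.42% had the reverse signs.

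The partners and chaperones of AHR were set beside it. Of 12 genes, 11 were listed and 9 averaged 1 FPKM or more, and in CLA against Vehicle 1 was higher past the limit, 0 were lower and 8 lay within it, beside 12.3% of all genes past it. The gene past the limit was Epas1, a hypoxia-inducible factor that also pairs with ARNT. It had 5.28 FPKM in Vehicle and 5.83 in CLA+GW6471, with 12.99 in CLA and 10.7 in GW6471. Hif1a, another such factor, had 53.09, 76.82, 81.83 and 51.33 FPKM and was past the limit in both comparisons with the GW6471 library. Hsp90ab1, an HSP90 chaperone gene, ran from 638.91 FPKM in CLA+GW6471 to 932.98 in CLA, whereas Hsp90aa1, another, had 239.98, 186.19, 209.22 and 236.75. Src, a kinase held in the cytosolic complex of AHR, had 62.75, 47.53, 55.05 and 63.93 FPKM. In GW6471 against Vehicle 2 of the 9 were higher, beside 3.28% of all genes higher. CLA+GW6471 was lower than CLA for 1, beside 9.15% of all genes lower, and lower than GW6471 for 2, beside 3.88% lower. Epas1 was past the limit in all 4 comparisons. Arnt2, the paralog of Arnt, stayed between 6 and 7.79 FPKM.

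Further known AHR targets were mixed. Of 24 genes, 22 were listed and 12 averaged 1 FPKM or more. In CLA against Vehicle 2 of these were higher, 1 was lower and 9 lay within 1.5-fold, beside 12.3% of all genes past it, and in GW6471 against Vehicle the numbers were 2, 0 and 10, beside 5.38%. CLA+GW6471 was higher than CLA for 1 and lower for 3, beside 16% of all genes, and relative to GW6471 it was higher for 0 and lower for 2, beside 6.69%. Xdh, which encodes xanthine dehydrogenase, had 3.2 FPKM in Vehicle and 2.49 in CLA+GW6471, with 6.02 in CLA and 5.07 in GW6471. Ugdh, whose product makes the UDP-glucuronic acid that UGT enzymes use, had 142.49, 282.28, 224.27 and 124.47 FPKM. Both genes thus shared the order of Ahr.

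The opposite order was seen in Serpinb2, a serine protease inhibitor that dioxin induces in several cell types. It had 32.37 FPKM in Vehicle and 33.16 in CLA+GW6471, with 14.53 in CLA and 24.9 in GW6471, so that the libraries with high Cyp1a1 were its low ones. Cyp2s1 was high in CLA alone, at 80.31 FPKM against 57.19 in Vehicle, 56.05 in GW6471 and 47.77 in CLA+GW6471. Over the 12 genes the median log2 difference of CLA against Vehicle was 0.15, beside -0.0071 over all genes, and that of CLA+GW6471 against CLA was -0.02, beside 0.009. Nfe2l2, which encodes NRF2 and is itself a target of AHR, stayed between 118.06 and 127.89 FPKM.

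**Figure D4:**
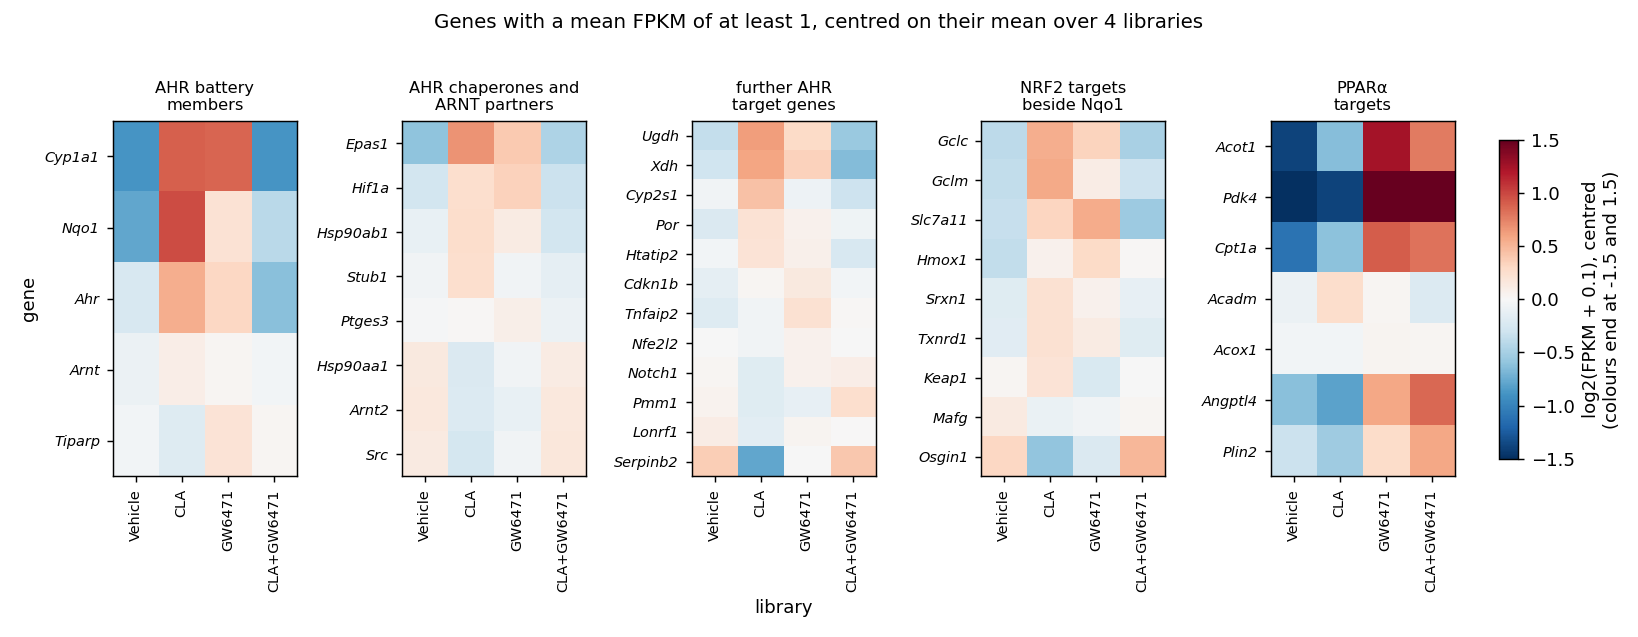
Log2(FPKM + 0.1) of genes averaging 1 FPKM or more, centred on each gene's mean over the 4 libraries (columns), for the battery and 4 further lists with 1 gene not shown, where red is above and blue below the mean. Cyp1a1, Nqo1, Ahr, Epas1, Ugdh, Xdh and Gclc are red in CLA and GW6471 and blue in the other libraries, whereas Pdk4, Cpt1a and Acot1 are red in both libraries with GW6471.

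NRF2 targets were set beside Nqo1, since that gene answers to both factors. Of 10 genes, 9 averaged 1 FPKM or more. In CLA against Vehicle 3 were higher past the limit, 1 was lower and 5 lay within it, beside 7.3% of all genes higher and 4.95% lower. In GW6471 against Vehicle 3 were higher and 0 lower, beside 3.28% and 2.1% of all genes. CLA+GW6471 was higher than CLA for 1 and lower for 3, beside 6.84% and 9.15%. Relative to GW6471 it was higher for 1 and lower for 2, beside 2.81% and 3.88%. Gclc and Gclm encode the subunits of the enzyme that starts glutathione synthesis. Gclc had 11.85 FPKM in Vehicle and 11.13 in CLA+GW6471, with 22.76 in CLA and 19.67 in GW6471, and Gclm 25.04, 47.86, 35 and 25.96. Slc7a11, the cystine transporter subunit, had 28.08, 44.62, 52.65 and 24.51 FPKM. Osgin1 had the reverse order of Ahr, at 105.65 FPKM in Vehicle and 120.15 in CLA+GW6471, with 56.74 in CLA and 73.51 in GW6471. The letters TGACNNNGC of the antioxidant response element, searched on both strands, occurred 2 times upstream of Nqo1, a number that 14.5% of genes reach.

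Enzymes that make AHR ligands from tryptophan were low. Of 11 genes, 10 were listed and 2 averaged 1 FPKM or more, and neither passed 1.5-fold in any of the 4 comparisons. Of all genes, 12.3% passed it in CLA against Vehicle and 5.38% in GW6471 against Vehicle. In CLA+GW6471 against CLA 16% did, and against GW6471 6.69%. A list of 2 genes is too short to be set apart from these shares. Afmid, the kynurenine formamidase, had 10.65 FPKM in Vehicle and 11.23 in CLA+GW6471, with 7.99 in CLA and 9.11 in GW6471, and Ccbl1, a kynurenine aminotransferase gene, had 2.86, 3.24, 3.71 and 2.66. Tdo2, the tryptophan dioxygenase of hepatocytes, was at 0.03 FPKM in Vehicle and listed at 0 in the other libraries. Ido1 was not listed.

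PPARα targets were higher past the limit mainly in the comparisons that add GW6471. Of 12 genes, 11 were listed and 7 averaged 1 FPKM or more. In GW6471 against Vehicle 5 of these were past the limit, all higher, beside 5.38% of all genes, 3.28% higher. In CLA+GW6471 against GW6471 0 were past it, beside 6.69% of all genes in either direction. In CLA against Vehicle 2 were higher, beside 7.3% of all genes higher, and in CLA+GW6471 against CLA 5 were higher, beside 6.84% higher. Cpt1a, the carnitine palmitoyltransferase of mitochondrial fatty acid entry, had 11.34 FPKM in Vehicle and 43.13 in CLA+GW6471, with 15.98 in CLA and 46.04 in GW6471. Acot1, an acyl-CoA thioesterase, had 2.34, 4.01, 15.04 and 10.86 FPKM, and Angptl4, an inhibitor of lipoprotein lipase, had 11.47, 10.15, 26.76 and 32.39. Cpt1a, Acot1 and Angptl4 were thus high in both libraries with GW6471, of which the first had 74.74 FPKM of Cyp1a1 and the second 22.08. Acadm, a dehydrogenase of fatty acid oxidation, had the order of Ahr instead, with 29.96, 38.26, 32.4 and 27.67 FPKM.

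Genes among those with a pattern most like that of Cyp1a1 were Ccl20 and Dhcr7, at Euclidean distances of 0.33 and 0.34 between the 4 centred log2(FPKM + 0.1) values. Ccl20, a chemokine gene, had 9.57 FPKM in Vehicle and 7.36 in CLA+GW6471, with 30.65 in CLA and 25.17 in GW6471. Dhcr7 encodes the last enzyme of cholesterol synthesis. Most like Nqo1 were Mvd, Nudt13 and Fam20a, at distances of 0.19, 0.21 and 0.23. Mvd, an enzyme of the mevalonate pathway, had 4.58 FPKM in Vehicle and 5.1 in CLA+GW6471, with 13.5 in CLA and 7.94 in GW6471. With 4 libraries, such likeness is a description only.

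Markers of other cells were read for their level beside the battery. Of the stratified epithelial markers, all 6 were listed and 3 had a mean FPKM below 1, and Sprr1a alone had 19045.64 FPKM in Vehicle and 26115.83 in CLA+GW6471, with 15810.18 in CLA and 18795.15 in GW6471. The others that averaged 1 FPKM or more were Ivl, with 1.68, 2.57, 2.96 and 1.72 FPKM, and Krt5, with 2.99, 4.29, 2.79 and 2.94. Neither had the order of Sprr1a, which was the reverse of that of Ahr. Ivl had both single treatments above both other libraries, and Krt5 did not. The 6 markers of simple epithelium summed to 457.6, 641.3, 528 and 386.4 FPKM, the same order as Ahr, which came from Spp1 with 372.04, 574.44, 452.82 and 301.97 FPKM. Sox9 had the reverse order, with 54.74, 34.72, 48.67 and 57.05 FPKM, and Krt7 and Krt19 were highest in Vehicle. Cd68 of macrophages had 23.43, 35.64, 24.87 and 24.37 FPKM, while the macrophage markers Clec4f, Marco and Vsig4 were not listed. The stellate cell or fibroblast markers, 6 of 7 listed, summed to 1288.1, 1507.1, 1350.7 and 1148.6 FPKM. This was nearly all Dcn, and the sum and Dcn had the order of Ahr. Endothelial markers, 5 of 6 listed, summed to 0.51 to 0.96 FPKM, lymphocyte markers, 2 of 5 listed, to 0.04 to 0.16 and erythroid markers, 2 of 3 listed, to 1.87 to 2.1. The part of these cells in the levels of the battery was not tested.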

How the data were processed

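Liver RNA of 4 groups of mice was sequenced, with 1 library per group, and samples were grouped by their treatment label. The authors used BWA and Bowtie for mapping to mm9 and Cufflinks for quantification, and the deposited values, taken as FPKM, carry 2 decimals. Versions, strandedness and the filter behind the 15500 listed genes are not given in the sources used here, and the table names no unit. No value was rescaled, and 0.1 was added before log2, so folds of low genes are understated on that scale. Library depth was estimated from the step of FPKM times transcript length over 544 genes shorter than 1000 nt with 1 transcript. Reads per gene were then FPKM times length times depth, with the longest coding transcript of GENCODE vM1, and are approximate. Intervals (95%, Clopper-Pearson) cover counting error only. A difference was counted from 1.5-fold among genes averaging 1 FPKM or more.

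No test was made, because 1 library per group leaves no replicate error. The named genes were all 10 members, the 4 genes (or fewer) with the largest range in each further list, and the 3 genes nearest to each of the 2 members with the largest range among those averaging 1 FPKM or more. Of these, 2 genes are not reported here by name, although counts include them. Other genes were named after their values were seen, namely Alb, Ttr, Cps1, Cyp2e1, Glul, the other markers, Nfe2l2, Arnt2, Hsp90aa1, Src, Acadm, Ugt1a6b, Tdo2 and Ido1. The members and lists were chosen with earlier results of these data known. Motifs were counted in the 2000 bases upstream of the longest coding transcript of each gene in mm9. For Ugt1a6a the RefSeq promoter (GRCm38.p6) was matched to mm9 by its letters. RefSeq promoters were at hand for 8 of the 10 members. Alternatives were a pseudocount of 0.01 or 1, no filter or a mean FPKM of 5, scaling to equal sums or by the median ratio, and a limit of 2-fold. The steps were tested on simulated data. Python 3.11.15, numpy 2.4.6, pandas 2.3.3, scipy 1.17.1, pysam 0.24.0 and matplotlib 3.10.9 were used.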

Additional observations from a re-analysis of the deposited data

Results flagged for a closer look

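For 3 members the difference between libraries with and without CLA had opposite signs with and without GW6471, past 1.5-fold each way, as they had in 2.98% of all 10355 genes in this direction and 1.42% in the reverse one. The members were chosen with these values known. On the log2(FPKM + 0.1) scale, the difference with GW6471 minus that without it was -3.53 for Cyp1a1, -1.72 for Ahr and -2.38 for Nqo1. The difference between these effects was not tested, since each condition had 1 library. For Nqo1, the ratio of CLA+GW6471 to GW6471 was 0.627 with a counting interval of 0.386 to 1.04, and the log2 difference, -0.62, became -0.37 with a pseudocount of 1, inside 1.5-fold. With a limit of 2-fold only Cyp1a1 was past it both ways. At that limit 2.53% of all genes were past it in CLA against Vehicle and 1.16% in CLA+GW6471 against GW6471, in either direction. The share of all genes past it both ways was not counted.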

How the results depend on the processing

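No paired analysis was possible because each group had 1 library and the groups shared a single replicate number. Counts of members past the fold limit kept within 1.5 times in 21 of 28 alternatives. In GW6471 against Vehicle the count of 2 became 1 with a pseudocount of 1, with a mean of 5 FPKM or more and with a limit of 2-fold, and 4 with no filter on low values. With no filter it went from 3 to 6 for CLA against Vehicle and also for CLA+GW6471 against CLA, since the members below a mean of 1 entered, beside 15.5% and 18.7% of all genes. In CLA+GW6471 against GW6471 it went from 3 to 1 with the limit of 2-fold, and to 2 with a pseudocount of 1, where Nqo1 was lost. Cyp1a1 was past the limit in all 4 comparisons under every alternative. Scaling to a common FPKM sum brought Ahr past the limit in GW6471 against Vehicle. None of the 144 log2 differences of single members under another pseudocount or scaling changed the sign of a called one. A pseudocount cannot change a sign, so for those settings this was fixed in advance. Of the 144, 142 moved by less than the counting error, the others being Ugt1a6a with a pseudocount of 1. Near the floor that error is too wide to show a shift. With a pseudocount of 0.01 the difference of CLA against Vehicle went from 1.379 to 4.087 for Cyp1a2, and from 0.933 to 2.585 for Cyp1b1. Both were counted as less than it. The share of all genes past the limit in GW6471 against Vehicle was 2.96% with a pseudocount of 1, 10% with no filter, 3.26% at a mean of 5 and 0.869% with the limit of 2-fold, against 5.38%. In CLA+GW6471 against GW6471 it was 4.12%, 11.2%, 4.37% and 1.16%, against 6.69%. With the limit of 2-fold it was 2.53% for CLA against Vehicle, and for CLA+GW6471 against CLA 3.93%. Depth left Cyp1a2, Cyp1b1 and Ahrr at 15 reads or fewer per library.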
